A study of Mus musculus with 6 samples.

Results

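The genes described here build and load MHC class I molecules: H2-K1, H2-D1, H2-T23, B2m, Tap1, Tap2, Tapbp, Erap1 and Nlrc5. These 9 genes, of 23152 with a name of their own on the array, were chosen by symbol for their role in the pathway, with earlier results of these data known, and their 115 probe sets (exon-level groups of probes) are those of 269751 for which the platform annotation gives that 1 symbol. The cells were regulatory T cells (Tregs, CD4+ T cells that restrain immune responses), sorted as CD4+CD25high cells from the spleens of untreated male mice aged 45 weeks. The KO group was 3 DJ-1-/- mice, which lack the protein encoded by Park7, and the WT group was 3 DJ-1+/+ littermates, with 1 Affymetrix Mouse Gene 2.0 ST array per mouse. The labels do not say which part of Park7 the knockout removes or on which strain it is held.

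MHC class I molecules display peptides from inside a cell on its surface, where CD8 T cells and natural killer cells read them. Each consists of a heavy chain, such as those encoded by the classical genes H2-K1 and H2-D1, and the light chain beta-2 microglobulin, encoded by B2m. Peptides made by the proteasome are pumped into the endoplasmic reticulum by the transporter formed of Tap1 and Tap2, trimmed by the aminopeptidase Erap1 and fitted into the heavy chain with the help of tapasin, encoded by Tapbp. Nlrc5 is the transactivator that binds, with other factors, at the promoters of class I genes, and interferon raises most genes of the pathway. H2-T23 encodes Qa-1, a nonclassical molecule that mainly presents a leader peptide of classical heavy chains and is read by the CD94/NKG2A receptor.

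The promoters of 4 members that encode parts of the class I molecule itself are shown. They were chosen because H2-T23 and B2m were lower in each KO array while H2-K1 and H2-D1 overlapped between the groups, as described below. None of the 4 passed an adjusted p of 0.05 in limma. B2m differed by only -0.03 log2 units, and the gap of H2-T23 was present in 1 of its 6 probe sets. Whether promoter letters bear on these values was not tested. Each line gives the 250 bases before the RefSeq transcription start in the GRCm38.p6 build, 5′ to 3′ on the strand of the gene, and capitals mark the motif letters that were found. The windows are chr17:34000334-34000583 on the minus strand for H2-K1, chr17:35262844-35263093 on the plus strand for H2-D1, chr17:36032702-36032951 on the minus strand for H2-T23 and chr2:122147437-122147686 on the plus strand for B2m.
H2-K1: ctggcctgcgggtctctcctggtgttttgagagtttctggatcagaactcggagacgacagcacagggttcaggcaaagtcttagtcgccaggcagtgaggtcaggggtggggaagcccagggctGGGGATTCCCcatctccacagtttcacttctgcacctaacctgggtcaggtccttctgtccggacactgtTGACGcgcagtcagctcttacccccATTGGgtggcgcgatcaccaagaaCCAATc
H2-D1: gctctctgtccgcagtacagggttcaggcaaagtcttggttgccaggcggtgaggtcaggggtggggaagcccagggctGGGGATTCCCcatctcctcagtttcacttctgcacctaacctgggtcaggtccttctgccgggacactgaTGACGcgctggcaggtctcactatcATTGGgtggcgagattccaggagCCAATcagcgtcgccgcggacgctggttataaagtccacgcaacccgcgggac
H2-T23: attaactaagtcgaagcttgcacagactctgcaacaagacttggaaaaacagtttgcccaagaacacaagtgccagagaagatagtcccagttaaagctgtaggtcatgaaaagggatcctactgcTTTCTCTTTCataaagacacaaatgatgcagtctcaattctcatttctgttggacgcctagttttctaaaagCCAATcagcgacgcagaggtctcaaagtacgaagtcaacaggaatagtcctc
B2m: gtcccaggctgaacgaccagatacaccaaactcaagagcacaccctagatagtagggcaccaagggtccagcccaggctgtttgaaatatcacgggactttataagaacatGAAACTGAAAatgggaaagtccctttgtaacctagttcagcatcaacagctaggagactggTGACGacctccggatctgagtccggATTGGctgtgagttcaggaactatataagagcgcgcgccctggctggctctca

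The 4 motifs searched, each on both strands, were TGACG (the core of the X2 box), CCAAT (the core of the Y box), the NF-kB site known from the H2-K promoter and the core of the interferon-stimulated response element (ISRE), and no match overlapped another in the windows shown. Among 32851 promoter windows of the same length in the RefSeq table, TGACG occurred in 17.8%, CCAAT in 33.8%, the NF-kB site in 0.0852% and the ISRE core in 2.98%. The H2-K1 window shown and that of H2-D1 held the same set in the same order, the NF-kB site starting 125 and 171 bases before the start, TGACG 55 and 101 bases before it, and 2 CCAAT matches nearer to it. The table lists another H2-K1 start, whose window at chr17:34000348-34000597 held the NF-kB site, TGACG and 1 CCAAT match. H2-T23 held 1 CCAAT match, 52 bases before the start, and 1 ISRE core, 124 bases before it, with no TGACG and no NF-kB site in this window. B2m held 1 TGACG, 1 CCAAT and 1 ISRE core. Of the 9 members 7 had an entry in the promoter table, and Tap2 and Nlrc5 did not. Tap2, whose groups also lay apart, thus has no window to set beside the others. Of the members not shown, Tap1 held 1 TGACG and 1 CCAAT match and Tapbp held 2 CCAAT matches. Neither held the NF-kB site or the ISRE core, and Erap1 held no match to any of the 4 motifs. The windows shown were picked by the values of their genes, so a contrast in motifs among them is no test of a link. A match describes letters only, and only exact letters were searched. A window without a match, such as those of H2-K1 and H2-D1 for the ISRE core, may still hold a variant form of the site.

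The array data as a whole set the limits of every value. Intensities on their linear scale were changed to log2(intensity + 16), the scale of all log2 values given here, and the value of a gene on an array is the median of its probe sets. All 9 members lay above the floor of 5.90 log2 units set for testing and were among 13891 tested genes. Median intensities per array lay between 88.6 (KO replicate 1) and 100.2 (WT replicate 2), and KO replicate 1 stood apart from the other arrays, with a mean correlation over probe sets of 0.951 against 0.957 to 0.964 for the others. Park7 was at 5.91 ± 0.18 log2 units in KO and 9.48 ± 0.21 in WT (SD, n = 3 each), a difference of -3.57 (limma adjusted p = 2.06e-05), and was lower in each KO array, as the labels say. Of the 6 Treg markers Foxp3, Il2ra, Ctla4, Ikzf2, Cd4 and Cd3e, none passed the threshold, and their summed intensity was 27758 to 29076 in KO and 29826 to 30034 in WT. The number of arrays limits the precision, and in bulk samples fewer cells of a type and less RNA per cell cannot be told apart.

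The comparison of KO with WT asked whether loss of DJ-1 came with another level of the class I presentation genes in Tregs. No member passed an adjusted p of 0.05 in limma, and the heavy chains H2-K1 and H2-D1, the light chain B2m, tapasin and Nlrc5 differed by 0.11 log2 units or less. Tap2 and H2-T23 had the largest differences, both lower in KO in all arrays, and these sizes depended on which probe sets entered the gene value. Over all tested genes 0.274% passed (0.266% lower in KO), and over the members 0 of 9. At an unadjusted p under 0.05 there were 2 of 9 members, H2-T23 and Tap2, both lower in KO, where 10.7% of all tested genes lay under it and 7.67% were also lower in KO. The count was 0 of 9 with the mean of probe sets (Tap2 -0.20, H2-T23 -0.19) and with bright probe sets only (Tap2 -0.13, H2-T23 -0.17). In 3 of 9 members (H2-T23, B2m and Tap2) every KO array lay below every WT array, against 11.3% of all tested genes. In 0 of 9 every KO array lay above every WT array, against 6.1%. Differences were below 0 in 6 of 9 members and in 59.7% of all tested genes, and their median was -0.06 over the members and -0.05 over all tested genes. An exact permutation test of 3 against 3 arrays (two-sided) cannot go below 0.1, the value of these 3 members.

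**Figure D1:**
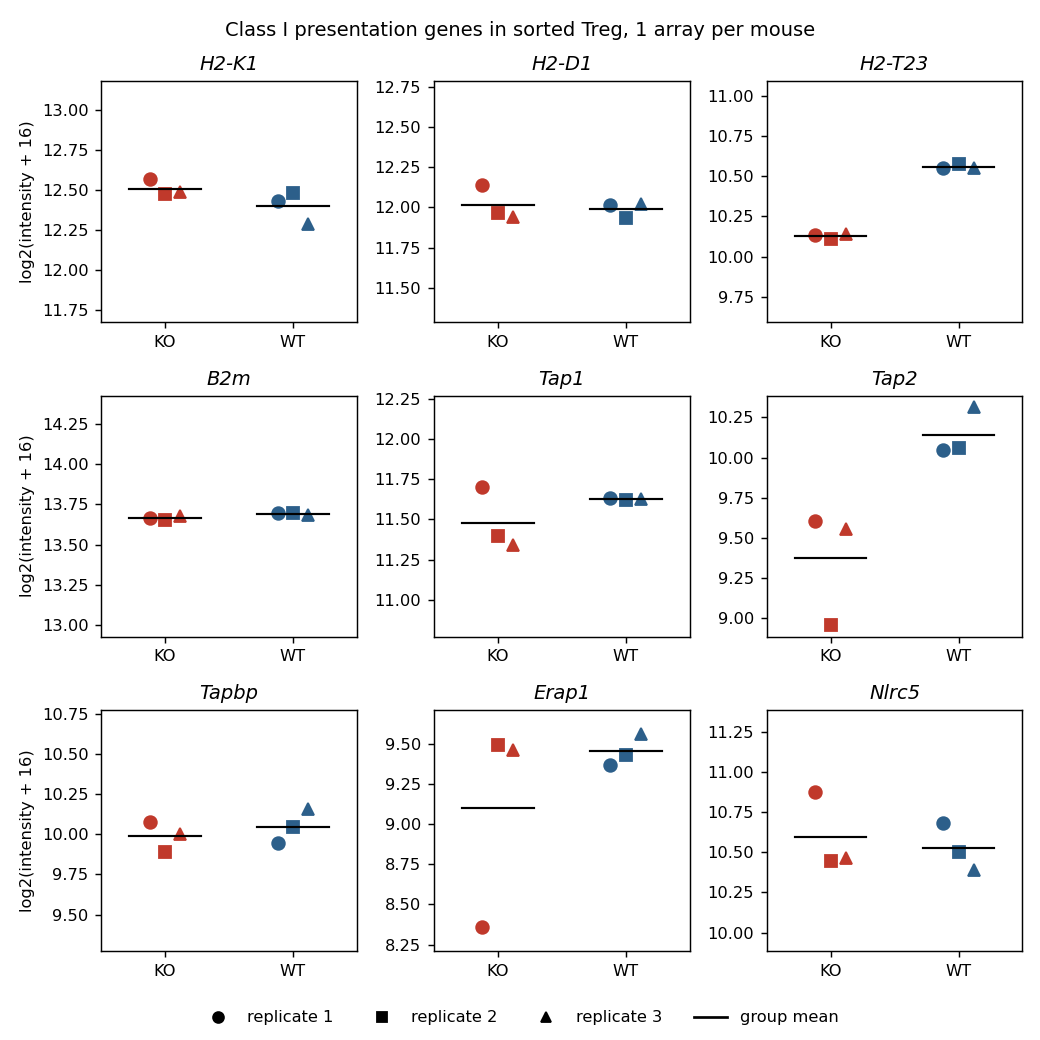
Values of the 9 class I presentation genes on the log2(intensity + 16) scale, KO arrays in red at the left and WT arrays in blue at the right of each panel, with a marker shape for each replicate number and a line at each group mean. All panels span 1.5 log2 units, so that the gap of 0.43 for H2-T23 and the low Erap1 value of 8.36 in KO replicate 1 can be set against the narrow spread of B2m.

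Neither classical heavy chain gene passed the test, and the groups overlapped in both. H2-K1 measured 12.57, 12.47 and 12.49 log2 units in KO replicates 1 to 3, against 12.43, 12.48 and 12.29 in WT replicates 1 to 3. The groups overlapped, since WT replicate 2 lay within the KO range. The difference was 0.11 (95% interval -0.19 to 0.40, limma adjusted p = 0.801), and between 0.051 (without WT replicate 3) and 0.15 (without WT replicate 2) with 1 array left out. H2-D1 measured 12.14, 11.96 and 11.94 in KO and 12.01, 11.93 and 12.02 in WT. KO replicate 1 was the highest of the 6 arrays and the remaining values were interleaved, with a difference of 0.02 (-0.27 to 0.32, adjusted p = 0.961) that was -0.04 without KO replicate 1. Mouse class I heavy chains are close in sequence, so probes for one may take up transcript of another, and their separate values are uncertain to that extent.

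Of the 7 H2-K1 probe sets, 5 were higher and 2 lower in KO by their means, with differences from -0.18 to 0.25. The lowest, probe set 17343711, had intensities of 3848, 3998 and 3884 in KO and 4373, 4440 and 4485 in WT, with no overlap. Its difference of -0.18 did not pass (adjusted p = 0.754 over all probe sets). Probe set 17343723 was near 0 on 5 of the 6 arrays. The brightest H2-D1 probe set, 17337075, had intensities of 12753, 12603 and 12658 in KO and 12373, 12481 and 13239 in WT, a difference of -0.0024.

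H2-T23, the gene of the nonclassical molecule Qa-1, measured 10.13, 10.11 and 10.14 log2 units in KO, against 10.55, 10.57 and 10.55 in WT. Both groups were tight and lay apart. The difference was -0.43 (SE 0.13, 95% interval -0.71 to -0.15), with an unadjusted p of 0.00677 and an adjusted p of 0.269 in limma. The within-group SD of H2-T23 was 0.015 against a median of 0.20 over all tested genes. limma draws such small spreads toward that of other genes, and without this step the adjusted p was 0.0512, in a test added after the values were seen in which 0 genes of the array passed (1335 genes at an unadjusted p under 0.05).

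The gap between the groups was present in 1 of the 6 probe sets of H2-T23. On every array the gene value was the mean of the 2 middle probe sets, 17344570 and 17344575. Probe set 17344570 had intensities of 657, 906 and 844 in KO and 1233, 1406 and 1249 in WT, all KO below all WT, with a difference of -0.69 (unadjusted p = 0.0067, adjusted p = 0.531 over all probe sets). Probe set 17344575 had intensities of 1858, 1311 and 1471 in KO and 1786, 1618 and 1766 in WT, with overlap and a difference of -0.17. KO replicate 1 was thus the lowest array of the first and the highest of the second, so the tight KO values of the gene are those of a mean of 2 unlike probe sets. The brightest, 17344573, differed by -0.15 and 17344574 by -0.07, 17344576 by -0.23, and 17344577, at 17.0 or less on every array, by 0.15. Without 17344570, 17344576 or 17344577 the gene's difference was -0.17 (95% interval -0.52 to 0.19) and the groups overlapped, and without any of the other 3 it was -0.69.

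The light chain gene B2m measured 13.67, 13.65 and 13.68 log2 units in KO and 13.70, 13.69 and 13.68 in WT. Its groups did not overlap, but the difference of -0.03 (95% interval -0.31 to 0.25, adjusted p = 0.956) was small and turned to 0.0008 with quantile normalization and 0.0091 with median centring. The 3 brightest of its 4 probe sets differed by 0.01, -0.01 and -0.04. Probe set 17375377 had intensities of 4076, 5441 and 5245 in KO and 6184, 6506 and 5713 in WT, without overlap, and differed by -0.33 (unadjusted p = 0.0952, adjusted p = 0.702). Probe set 17375374 reached 18216 in KO replicate 1, the highest intensity of the whole table, and whether the upper end of the scale narrows differences there was not tested.

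Of the transporter genes, Tap2 measured 9.61, 8.96 and 9.55 log2 units in KO and 10.04, 10.06 and 10.31 in WT, with each KO array below each WT array. The difference of -0.77 (SE 0.19, 95% interval -1.20 to -0.34) was the largest among the members, with an unadjusted p of 0.00270 and an adjusted p of 0.193 in limma. Tap1 measured 11.70, 11.40 and 11.34 in KO and 11.64, 11.62 and 11.63 in WT. KO replicate 1 lay above and the other KO arrays below all WT arrays, whose SD was 0.009. The Tap1 difference was -0.15 (95% interval -0.47 to 0.18, adjusted p = 0.747), with -0.26 without KO replicate 1 and -0.078 without KO replicate 3.

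In Tap2, 12 of 15 probe sets were lower in KO, 6 of them with no overlap (17336463, 17336464, 17336466, 17336467, 17336470 and 17336473). Over all probe sets 53% were lower in KO, and in 7.64% all KO arrays lay below all WT arrays (9.26% of those above the median level). The differences of the 15 had a median of -0.13, much nearer to 0 than the difference of the gene value. Probe set 17336463 had intensities of 763, 481 and 736 in KO and 1907, 1053 and 1302 in WT, a difference of -1.07 (unadjusted p = 0.0101, adjusted p = 0.553). It was the median probe set on all 3 KO arrays and on WT replicate 2, while 17336474 was the median on the other WT arrays. Without 17336463 the gene's difference was -0.24 (95% interval -0.55 to 0.07, unadjusted p = 0.116, adjusted p = 0.585), and the groups still did not overlap, while any other single omission left between -0.61 and -0.46. Among the brighter probe sets, 17336466 had intensities of 2379, 2567 and 2314 in KO and 3209, 3114 and 2962 in WT, with a difference of -0.35 (adjusted p = 0.620). The brightest, 17336464, differed by -0.09, with 3636, 3713 and 3642 in KO and 4000, 3761 and 3960 in WT.

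In Tap1, 9 of 13 probe sets were lower in KO and 5 of them without overlap (17336434, 17336439, 17336440, 17336442 and 17336445). The shares over all probe sets were 53% and 7.64%. Probe set 17336445 had intensities of 2027, 1981 and 2124 in KO and 2802, 2708 and 2907 in WT. Its difference of -0.45 had an unadjusted p of 0.0101 and an adjusted p of 0.552. Probe set 17336442, with 2321, 2683 and 2577 in KO and 3167, 3128 and 3146 in WT, differed by -0.32 (adjusted p = 0.656). The median over the Tap1 probe sets was -0.19 and that over the Tap2 probe sets -0.13, against gene differences of -0.15 and -0.77.

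**Figure D2:**
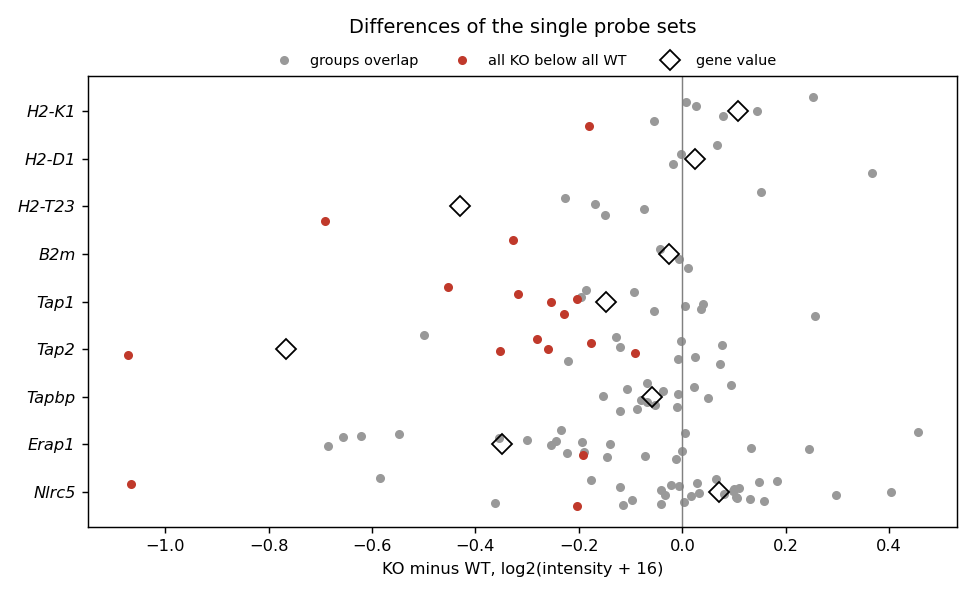
Difference between KO and WT on the log2(intensity + 16) scale for each of the 115 probe sets of the 9 genes, in red where all KO arrays lay below all WT arrays and in grey where the groups overlapped, with an open diamond at the difference of the gene value. The diamonds of Tap2 (-0.77) and H2-T23 (-0.43) lie far to the left of most of their own probe sets, and 11 of the 17 red points belong to Tap1 and Tap2. Over all probe sets of the array 7.64% would be red.

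Over the probe sets of all members, 0 of 115 passed an adjusted p of 0.05 in limma, where 0.00111% of the 269751 probe sets did, and the smallest adjusted p was 0.531. At an unadjusted p under 0.05 there were 6 of 115, all lower in KO, where 7.59% of all probe sets lay under it, 4.37% were also lower, and 4.6% of those above the median level were. All KO arrays lay below all WT arrays in 17 of 115 probe sets, against 7.64% of all probe sets and 9.26% of those above the median level, where 109 of the 115 lie. The opposite order held in 0 of 115, against 6.17% of all probe sets and 7.26% of those above the median level. The 17 came from 7 of the 9 genes, none from H2-D1 or Tapbp, and probe sets of 1 gene share their transcript, so they are no independent counts. Differences were below 0 in 74 of 115 member probe sets and in 53% of all. The member count was 67 with quantile normalization and 63 with median centring. These scalings also moved the median over all tested genes, from -0.05 to -0.01 and -0.02, so 53% is not the reference for those counts.

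Tapbp, the gene of the loading factor tapasin, measured 10.08, 9.89 and 9.999 log2 units in KO and 9.94, 10.05 and 10.15 in WT. The groups overlapped, with a difference of -0.06 (95% interval -0.36 to 0.24, adjusted p = 0.906) that ran from -0.11 (without WT replicate 1) to -0.0059 (without WT replicate 3) with 1 array left out. Its 14 probe sets had differences from -0.15 to 0.09, the narrowest range among the 9 genes, and in 0 of the 14 did the groups lie apart. Among all probe sets above the median level, 9.26% had all KO below all WT and 7.26% the opposite order. A count of 0 in 14 is not far from these shares. The brightest, 17336240, had intensities of 6031, 5329 and 4988 in KO and 5444, 5553 and 5744 in WT.

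The trimming peptidase gene Erap1 was set apart by 1 mouse. It measured 8.36, 9.49 and 9.46 log2 units in KO and 9.37, 9.43 and 9.56 in WT. KO replicate 1 was the lowest of the 6 arrays, and the other KO arrays lay within the WT range. The difference was -0.35 (95% interval -0.96 to 0.26, adjusted p = 0.689), and 0.02 without KO replicate 1. In 18 of the 22 Erap1 probe sets KO replicate 1 was the lowest of the 6 arrays, against 26.7% of all probe sets. The 18 include 17288661, at 0.0045 intensity units or less on every array, where the order of arrays has no meaning. Its distance from the mean of the other KO arrays had a median of -0.69 and was widest at probe set 17288672, with intensities of 69.9, 359 and 366 in KO replicates 1 to 3 and 314, 328 and 378 in WT. Probe set 17288675 ran the other way, with 1138 in KO replicate 1, 701 and 686 in the other KO arrays and 599, 493 and 703 in WT.

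Nlrc5, the class I transactivator, measured 10.88, 10.44 and 10.46 log2 units in KO and 10.68, 10.50 and 10.39 in WT. KO replicate 1 was the highest array and the others were interleaved. The difference was 0.07 (95% interval -0.30 to 0.44, adjusted p = 0.907), and -0.07 without KO replicate 1. Of its 30 probe sets 17 were higher and 13 lower in KO, and KO replicate 1 was the highest array in 12 of 30, against 18.3% of all probe sets. Probe set 17504026 held 3420 in KO replicate 1, 1711 and 1858 in the other KO arrays and 2303, 2282 and 2632 in WT. At probe set 17504073 the order was turned, with 325 in KO replicate 1, 905 and 1125 in the other KO arrays and 1031, 1125 and 995 in WT. The probe set with the lowest difference, 17504059 (-1.07, adjusted p = 0.616), was the dimmest of the 30 by its mean, with 164, 103 and 151 in KO and 515, 194 and 275 in WT.

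**Figure D3:**
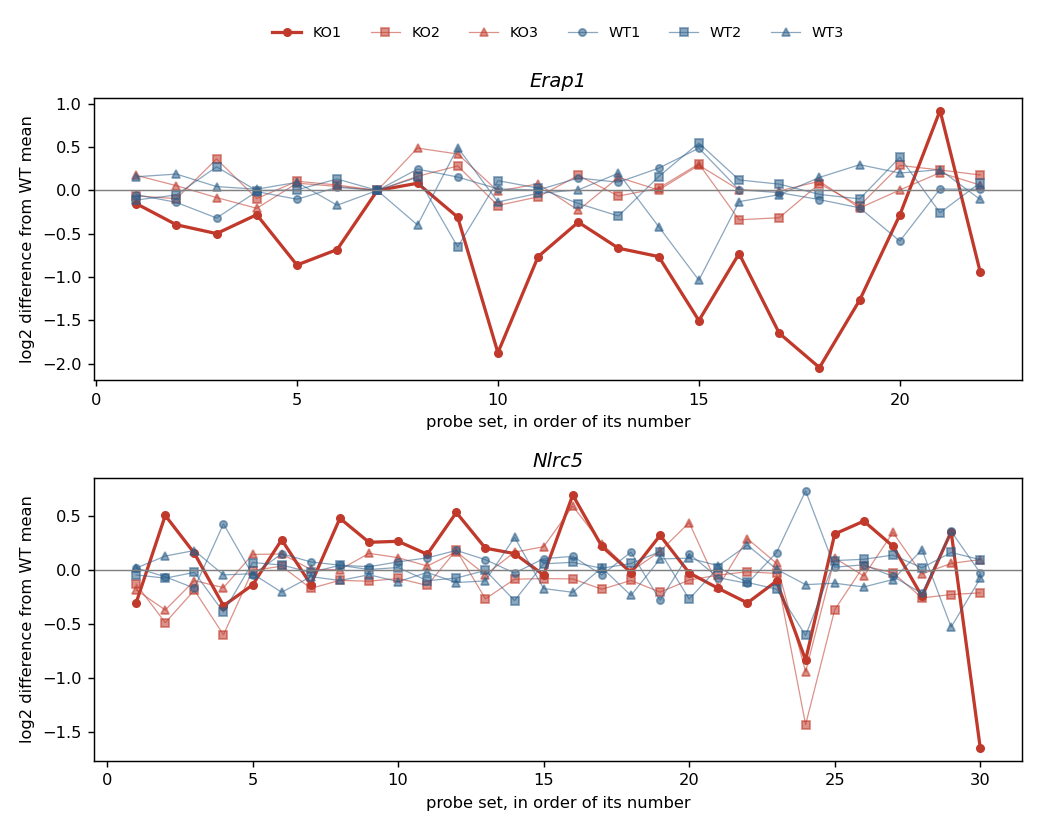
Values of each array in the probe sets of Erap1 (top, 22 probe sets) and Nlrc5 (bottom, 30 probe sets), as the log2 difference from the mean of the WT arrays, in the order of the probe set numbers, KO in red and WT in blue. KO replicate 1, drawn thick, lies lowest in 18 of the 22 Erap1 probe sets and highest in 12 of the 30 Nlrc5 probe sets. The 18 include 17288661, which is near 0 intensity on every array.

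Distances of KO replicate 1 from the mean of the other KO arrays differed in sign among members. They were -1.12 for Erap1 and 0.42 for Nlrc5, 0.35 for Tap2, 0.33 for Tap1, 0.19 for H2-D1, 0.13 for Tapbp and 0.09 for H2-K1, with 0.01 for H2-T23 and 0.00 for B2m. The mean log2 value over all tested genes was 7.83 in this array, against 7.98 in the other KO arrays. What sets this mouse or its array apart was not tested.

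**Figure D4:**
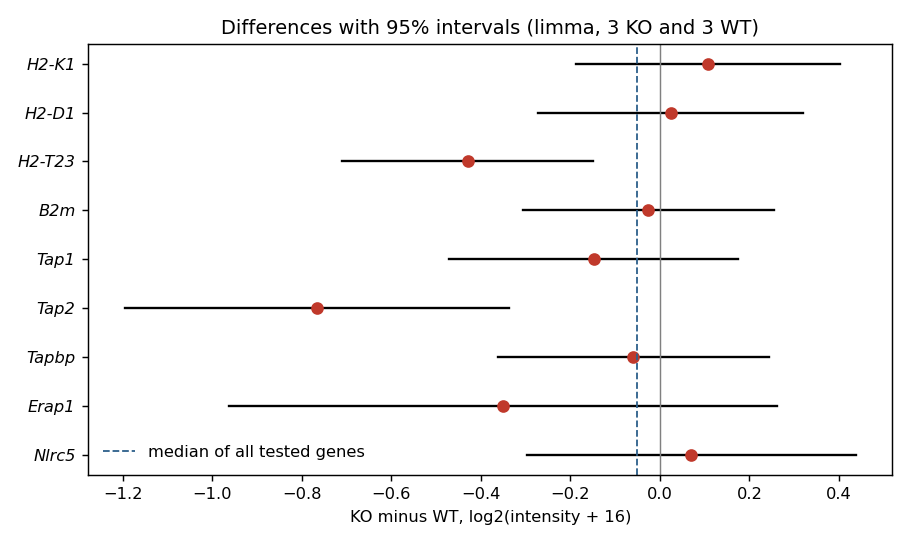
Difference between KO and WT on the log2(intensity + 16) scale for the 9 genes (points) with 95% intervals from limma (lines), and the median of all 13891 tested genes (dashed line, -0.05). The intervals of H2-T23 and Tap2 do not reach 0, but neither gene passed after adjustment (adjusted p = 0.269 and 0.193).

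Other genes of the class I pathway were read from lists by role, drawn up with earlier results of these data known, of which 59 of 76 genes were tested, 7 were measured below the floor and 10 were not analysed here. In all, 1 of the 59 passed the threshold, lower in KO, against 0.274% of all tested genes (0.266% lower in KO). Differences were below 0 in 45 of 59 with a median of -0.12, against 59.7% and -0.05 over all tested genes. At an unadjusted p under 0.05 there were 7 lower and 1 higher of the 59, where 10.7% of all tested genes lay under it in either direction and 7.67% were lower in KO. The gene that passed was Lilrb4, an inhibitory immunoglobulin-like receptor placed in the list of class I receptors. It was at 9.88 ± 0.23 in KO and 11.48 ± 0.36 in WT (-1.60, adjusted p = 0.0176). Its place in the list does not show that Lilrb4 reads class I molecules, which was not tested. Its sequence is near-identical to that of a neighbouring receptor gene, so its signal is uncertain, and it did not pass without KO replicate 3, WT replicate 1 or WT replicate 2 (adjusted p = 0.0855, 0.118 and 0.101).

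The immunoproteasome, which makes peptides suited to class I, was listed together with its activator. The list (Psmb8, Psmb9, Psmb10, Psme1, Psme2, Psme3 and Pomp) had 7 of 7 tested members below 0, with a median of -0.23 and 0 past the threshold. Psmb9, whose gene shares a promoter region with Tap1, measured 8.95, 8.85 and 8.99 log2 units in KO and 9.65, 9.68 and 9.72 in WT. The groups did not overlap, with a difference of -0.75 (SE 0.13, adjusted p = 0.0554), which passed in 4 of 19 alternative settings and in 0 of the 6 with an array left out. Psme2, a subunit of the proteasome activator, differed by -0.44 (adjusted p = 0.314), and by 0.17 with the mean of its 3 probe sets. In 5 of the 7 every KO array lay below every WT array, against 11.3% of all tested genes. The summed intensity of the list was 5323 to 5519 in KO and 6480 to 6548 in WT.

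Loading chaperones of the endoplasmic reticulum had 7 of 7 tested members below 0, with a median of -0.14 and 0 past the threshold. Calreticulin (Calr), which holds the heavy chain while it waits for peptide, was at 11.41 ± 0.11 in KO and 11.86 ± 0.09 in WT, a difference of -0.45 (adjusted p = 0.279). Pdia3, the disulphide isomerase of the loading complex, differed by -0.26 (adjusted p = 0.547). In 4 of the 7 (Calr, Canx, Pdia3 and Tapbpl) every KO array lay below every WT array, against the same 11.3% of all tested genes.

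Other heavy chains and class I-like molecules were balanced, with 6 of 12 tested members below 0, a median of -0.02 and 0 past the threshold. H2-K2, listed with the heavy chains, was at 10.25 ± 0.16 in KO and 9.87 ± 0.17 in WT (0.38, adjusted p = 0.419). Mr1, which presents vitamin metabolites, differed by -0.30 (adjusted p = 0.476). Cytosolic peptidases had 6 of 7 below 0 with a median of -0.04, among them Blmh (-0.32, adjusted p = 0.579) and Lap3 (-0.18, 0.704). Factors known from class I promoters had 7 of 9 below 0 with a median of -0.03. Of these, Nfyb, a subunit of the factor that binds CCAAT, differed by -0.47 (adjusted p = 0.391) and Rfx5, which binds the X box, by -0.30 (0.550). Interferon receptors, signalling genes and factors had 9 of 13 below 0 with a median of -0.07, with Irf8 at -0.42 (adjusted p = 0.391) and Irf1 at -0.22 (0.590). None of these 4 lists had a member past the threshold. Every KO array lay below every WT array in 2 of the 12 other heavy chains and class I-like molecules and 0 of the 7 peptidases. The same held in 0 of the 9 promoter factors, 3 of the 13 interferon genes and 2 of the 4 tested class I receptors, against 11.3% of all tested genes. The opposite order held in 1 of the 12 and 1 of the 9, against 6.1%.

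**Figure D5:**
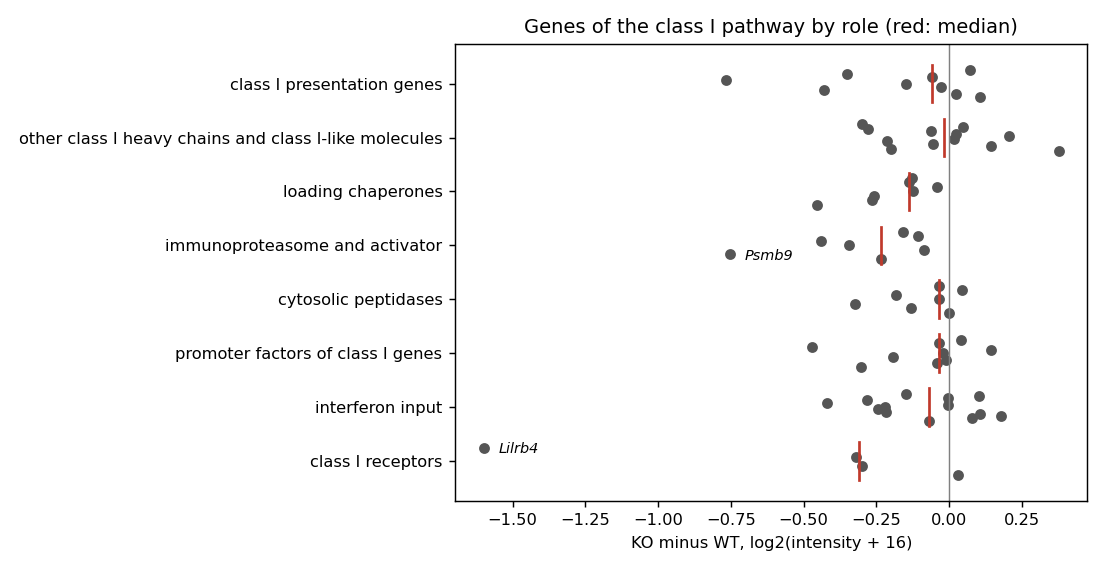
Difference between KO and WT on the log2(intensity + 16) scale for each tested gene, by role in the class I pathway, with the 9 class I presentation genes in the top row and a red line at the median of each row. Medians ran from -0.31 for the 4 genes listed as class I receptors and -0.23 for the list of immunoproteasome and activator to -0.02 for the other heavy chains. Lilrb4, whose reading of class I was not tested, is the gene that passed the threshold.

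MHC class II genes present peptides from outside the cell and are mainly expressed by B cells, macrophages and dendritic cells. Of the 5 tested, 2 passed the threshold, against 0.274% of all tested genes. H2-Aa differed by -1.26 (adjusted p = 0.0406) and H2-Ab1 by -1.24 (adjusted p = 0.0343), and the summed intensity of H2-Aa, H2-Ab1, H2-Eb1, Cd74 and Ciita was 2550 to 3086 in KO and 4587 to 4839 in WT. Summed intensities of B cell markers were 996.9 to 1157 in KO and 986.5 to 1402 in WT, those of macrophage and dendritic cell markers 669.1 to 731.2 in KO and 732.3 to 1061 in WT, and those of NK and CD8 T cell markers 991.0 to 1156 in KO and 1348 to 1411 in WT. Among the B cell markers 6 of 7 were measured, with Ms4a1, Pax5 and Blk under the floor of 5.90 on average. The 3 tested were below 0, with a median of -0.17 and 0 past the threshold. All 10 macrophage and dendritic cell markers were measured, 4 of them under the floor. The 6 tested were all below 0, against 59.7% of all tested genes, with a median of -0.32 and 0 past the threshold. Csf1r (-0.54) and C1qc (-0.47) were the lowest of them, and of those under the floor only Fcgr1 was higher in KO (0.35). All 7 NK and CD8 markers were tested, of which Gzmk passed (-2.09), against 0.274% of all tested genes. The other 6 NK and CD8 markers did not pass and lay on both sides of 0, with a median over the list of -0.0067. Ncr1 was at -0.85, Cd8b1 at -0.30, Prf1 at -0.0067, Cd8a and Eomes at 0.03 and Klrb1c at 0.28. The part of these other cell types in the class I values was not tested.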

How the data were processed

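Tregs of 3 KO and 3 WT mice were each run on 1 array, and titles gave the group and replicate number of every sample. The deposited intensities are, per the labels, PLIER summaries of exon-level probe sets from Affymetrix Expression Console 1.4, on a linear scale. How background was corrected, whether arrays were normalized to each other and which annotation version was used are not given in the sources used here. Intensities were changed to log2(intensity + 16), which understates differences of dim probe sets, and no further normalization was applied. A single symbol belonged to 233753 of 269751 probe sets. The 5106 with several symbols and the 30892 with none entered no gene value. Gene values were medians of probe sets, and genes with a mean under the 40th percentile were left out. The KO against WT contrast was fitted without pairing by lmFit and eBayes of limma 3.58.1 (R 4.3.3), with two-sided p-values adjusted by Benjamini-Hochberg over all 13891 genes or all probe sets and a threshold of 0.05, and adjusted p-values come from it unless another setting is named. The fit was tested on simulated arrays.

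Members and lists were chosen with earlier results of these data known. All members were named. Of each member the probe sets past the threshold were to be named, or else the 2 with the smallest p and the 2 brightest, of which those that bear on the gene value are printed, with others chosen after their values were seen. Of each list the genes past the threshold were named, or else the 2 with the smallest p. The leave-out of single probe sets, the median over probe-set differences and the unmoderated test were added after the data were seen.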

Additional observations from a re-analysis of the deposited data

How the results depend on the processing

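No member gene and no member probe set passed the threshold under any alternative (0 in each of 19 settings for genes and 14 for probe sets), and the number of members lower in KO stayed between 5 and 8 of 9, with a median difference between -0.11 and -0.02. Leaving out 1 array gave 6 to 7 members lower in KO and medians of -0.11 to -0.02. Lowest adjusted p-values were 0.0512 for H2-T23 in the unmoderated test and 0.0696 for Tap2 with array weights. Small differences changed sign. Nlrc5 was at -0.027 with the mean of probe sets, -0.035 with array weights and -0.070 without KO replicate 1. B2m was at 0.00081 with quantile normalization and 0.0091 with median centring. H2-D1 was at -0.013 with array weights and, with 1 array left out, between -0.039 (KO replicate 1) and 0.062 (KO replicate 3), with -0.0041 for WT replicate 2. Erap1 ran from -0.54 without KO replicate 2 to 0.023 without KO replicate 1. Psme2 was at 0.17 with the mean of probe sets and Lap3 at 0.00073 with bright probe sets. Tap2 was -0.13 and H2-T23 -0.16 as the median over probe-set differences, and with 1 probe set left out H2-T23 ran from -0.69 to -0.17 and Tap2 from -0.61 to -0.24. The count of other pathway genes past the threshold, 1, was 2 (Lilrb4 and Psmb9) with a pseudocount of 64, a filter at the 60th percentile, a variance trend or array weights. It was 0 with bright probe sets and in the unmoderated test, and ran from 0 to 1 with 1 array left out. Park7 differed by -3.57 with an adjusted p of 0.0905 in the unmoderated test, in which 0 genes passed. Genes past the threshold over the array numbered 38, but 4 when WT replicate 1 or 2 was omitted, 7 when WT replicate 3 was, 11 when KO replicate 3 was, 67 with the replicate block, 60 with the mean of probe sets and 125 with array weights. Probe sets past it numbered 3, but 79 with a pseudocount of 1, 6 to 10 with a pseudocount of 64, a trend, array weights or another scaling, 15 with dim probe sets left out, 0 with the replicate block and 0 to 2 with 1 array left out. The replicate number as a block moved no member past the threshold. The block cannot change a difference, since each number occurs once in each group, so Tap2 stayed at -0.77 and H2-T23 at -0.43. Only the unadjusted p in limma could move, from 0.00270 to 0.00131 for Tap2 and from 0.00677 to 0.0122 for H2-T23. The labels do not say that the numbers pair the mice, so the numbers were not taken to pair them. Arrays with the same number deviated together with correlations of 0.15, 0.17 and 0.01. The values for replicates 1 and 2 were the highest of all pairs of a KO and a WT array, and KO replicate 3 correlated best with WT replicate 2 (0.092). These values do not decide whether the mice were paired. For other results the cause of a change with the setting was not tested.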

Other observations

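Genes whose pattern over the 6 arrays lay nearest to the mean pattern of the 9 members, by the root-mean-square difference of centred log2 values, were 4921517L17Rik (0.017), Tnk1 (0.018), 4933407C03Rik (0.025), Gm14318 (0.029) and Hadhb (0.034). That mean pattern itself spanned only -0.14 in KO replicate 2 to 0.10 in WT replicate 3, so many genes with small differences lie close to it.

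Of the 115 member probe sets, 3 were listed at under 1 intensity unit on at least 1 array: 17343723 of H2-K1, 17344577 of H2-T23 and 17288661 of Erap1. The median over the probe sets moved Erap1 to -0.19 and left Tapbp at -0.06 and B2m at -0.03.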
